A study of Macaca mulatta with 12 samples.

Results

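Interferon-gamma is a cytokine of T cells and natural killer cells that activates macrophages. It binds a receptor made of IFNGR1 and IFNGR2, and signalling through the kinases JAK1 and JAK2 switches on a first wave of genes, among them the transcription factor gene IRF1, which drives further targets. In macrophages these targets raise antigen presentation, Fc receptor levels, tryptophan breakdown and defence against microbes inside the cell. Lipopolysaccharide (LPS), a component of bacterial walls, acts through Toll-like receptor 4 and NF-kB on an overlapping set of genes.

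The 7 target genes described here are IDO1, FCGR1A, GBP7, CD274, PARP14, CIITA and CD74, picked by name from the 32386 genes of the deposited count table. GBP7 and PARP14 are listed by symbol, and the other 5 by an Ensembl identifier that a macaque name table matched to the symbol. All 7 were expressed above the low-count filter and were among the 11826 genes tested. The cells were rhesus macaque (Macaca mulatta) blood macrophages sorted as positive for CD14 and CD163 and negative for CD16, after a transplant of the animals' own mobilized CD34+ cells treated with CRISPR/Cas9. The series title names TET2-mutant hematopoiesis. Early CTL cells were taken 4.5 months after transplant and kept for 8 h without stimulus, and Early ACT cells, from the same time, were given LPS at 100 ng/ml and interferon-gamma at 20 ng/ml. Late CTL and Late ACT cells were taken at 19 months and handled in the same way. Every group therefore comes from transplanted animals, and no group of untransplanted animals was analysed here. For the ACT libraries the treatment label gives only LPS, whereas both agents appear in the protocol. The labels do not say how many animals were used, what share of cells carried an edit, or from which species the interferon-gamma came.

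Each group has 3 libraries, and no label says that they are separate animals, so the p-values speak only of how far these libraries vary, and that variation may be technical. Totals ran from 3910680 to 12972505 counts. Levels are library-scaled counts (CPM) adjusted with TMM factors, which correct for a few genes taking a large share of a library. CPM do not correct for gene length, so levels are compared between libraries and not between genes. Early ACT 1 stood apart from Early ACT 2 and 3 on the second principal component (-61.46 against 1.49 and 1.79). Many results are therefore given without it too, and a value given only with it may still depend on it. The positive markers of the sort were present in every library, CD14 at 1380 CPM or more and CD163 at 507.7 CPM or more. FCGR3, the gene of the negative marker CD16, was also detected in every library, from 31.2 CPM in Early ACT 1 to 49.0 CPM in Late CTL 3. Summed markers of T, NK and B cells, other blood cells that make or answer to interferon-gamma, stayed at or under 25.3, 23.2 and 13.2 CPM in any library.

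At 4.5 months stimulation raised 2 of the 7 targets, lowered 1 and left 4 short of the threshold, where 7.23% of all tested genes were called (4.57% higher and 2.66% lower). IDO1 and FCGR1A rose by 1.46-fold and 1.38-fold, while GBP7 fell 2.13-fold. The same 6 libraries showed a 3.75-fold rise of TNF, a standard LPS target. At 19 months none of the 7 passed, and neither did any of the 11826 tested genes (0%). Between the times 40.7% of tested genes were called in unstimulated and 38.8% in stimulated cells. Late levels of GBP7, CD274 and PARP14 in unstimulated cells and of FCGR1A, CD274, PARP14 and CD74 in stimulated cells were lower than early ones.

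**Figure D1:**
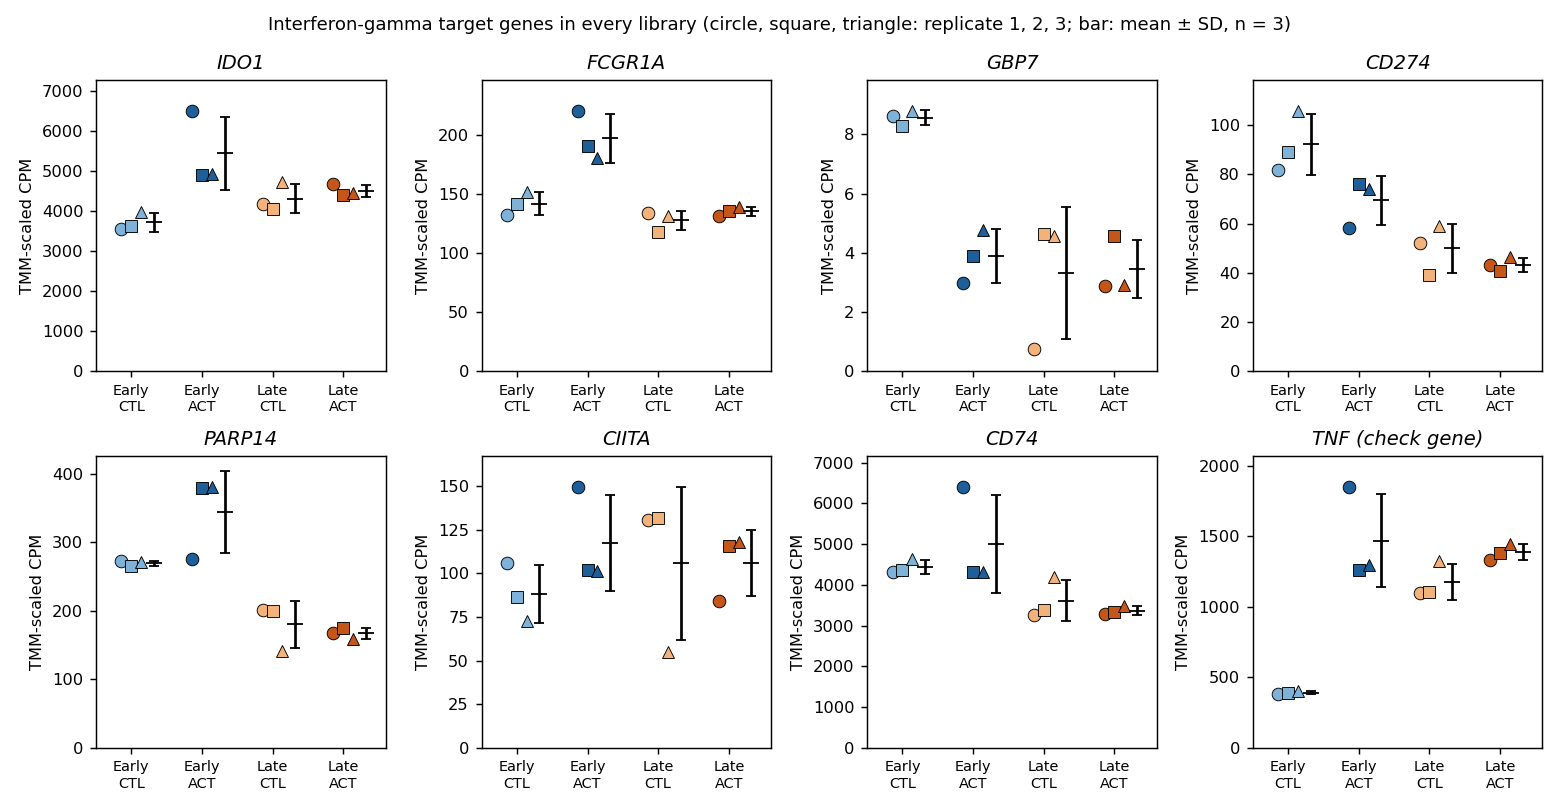
TMM-scaled CPM (vertical axis, from 0) of the 7 target genes and of TNF in the 12 libraries, by group; each symbol is 1 library and the bar is the mean with its SD (n = 3). The Early ACT libraries lie above the Early CTL libraries for IDO1, FCGR1A, TNF and PARP14, the last by a narrow margin in Early ACT 1. They lie below them for GBP7 and CD274. The 3 late stimulated libraries lie near the late unstimulated ones.

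IDO1 encodes indoleamine 2,3-dioxygenase, which breaks down tryptophan and limits T cell growth. It was abundant before any stimulus, at 3548, 3641 and 3991 CPM in Early CTL, and stood at 6506, 4916 and 4933 CPM in Early ACT. The groups did not overlap. On early stimulation the log2 difference was 0.55 ± 0.12 (SE; adjusted p = 0.00282, edgeR quasi-likelihood test with Benjamini-Hochberg adjustment). Without Early ACT 1, the highest library, it was 0.41 (adjusted p = 2.28e-05). IDO1 was the member that kept its call in all 19 alternatives. In Late CTL it stood at 4172, 4053 and 4721 CPM and in Late ACT at 4670, 4402 and 4454 CPM, so the groups overlapped. The late response was 0.06 ± 0.11 (95% interval -0.17 to 0.30, adjusted p = 0.9985), an interval that ends at a 1.23-fold rise.

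FCGR1A encodes CD64, the high-affinity receptor for IgG, which macrophages use to bind antibody-coated targets. Its levels were 131.9, 141.6 and 151.4 CPM in Early CTL and 219.9, 190.4 and 179.8 CPM in Early ACT, with every stimulated library higher. The early log2 fold change was 0.47 ± 0.11 (adjusted p = 0.0107), and 0.39 (adjusted p = 0.00156) without Early ACT 1. The call was lost without Early CTL 1 or 2 (adjusted p = 0.0948 and 0.0617) and with only the early groups in the fit (0.0516). Late CTL libraries held 133.4, 118 and 131.1 CPM and Late ACT libraries 130.9, 135.7 and 138.9 CPM. These ranges overlapped, and the late response was 0.09 ± 0.12 (95% interval -0.15 to 0.33, adjusted p = 0.9985).

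Among other Fc receptor genes, FCAR, the receptor for IgA, rose on early stimulation from 745.4 ± 48.7 to 1201 ± 37.2 CPM (SD, n = 3; log2 fold change 0.69 ± 0.13, adjusted p = 0.000798). FCER1G, the signalling chain shared by FCGR1A and FCAR, was at 0.41 ± 0.14 (adjusted p = 0.085), and at 0.20 (adjusted p = 0.17) without Early ACT 1. FCGR2A and FCGR3, which bind IgG with lower affinity, were at 0.06 and -0.10 (adjusted p = 0.79 and 0.758). The list includes FCGR1A. Of its 5 tested genes 2 rose early, FCGR1A and FCAR, where 4.57% of all tested genes were called higher. None passed late, where FCAR was at 0.27 (adjusted p = 0.9985).

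GBP7 encodes a guanylate-binding protein of the family that acts on microbes inside cells and that interferon-gamma strongly induces. Its level was low but even in Early CTL, at 8.62, 8.28 and 8.79 CPM, from 59, 89 and 103 counts. In Early ACT it was 2.97, 3.91 and 4.78 CPM, from 12, 46 and 56 counts, and no library reached the unstimulated range. The early log2 fold change was -1.09 ± 0.33 (adjusted p = 0.0452), and -0.98 (adjusted p = 0.0406) without Early ACT 1. The call stood close to the threshold and was lost in 8 of 19 alternatives, with adjusted p up to 0.133; in all 19 the sign was negative. Late CTL libraries held 0.757, 4.64 and 4.55 CPM, the first from 3 counts, and Late ACT libraries 2.87, 4.57 and 2.92 CPM. The late response of -0.05 ± 0.38 had a 95% interval from -0.83 to 0.72, so neither a rise nor a fall of up to 1.65-fold could be told from no change at this depth. Guanylate-binding genes are close paralogs in a cluster on chromosome 1, and reads may be split or shared between them.

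The other guanylate-binding rows, named here after their values were seen, did not pass the test as rising either. GBP6 fell on early stimulation, from 36.8 ± 2.66 to 23.4 ± 2.12 CPM (SD, n = 3; log2 fold change -0.65 ± 0.18, adjusted p = 0.0277). The row named GBP3 was at 0.21 ± 0.11 (adjusted p = 0.276), at 480.6 ± 32.6 and 555.6 ± 3.81 CPM. GBP6 was lower in every Early ACT library than in any Early CTL library, and the GBP3 row was higher in every one. Without Early ACT 1 the GBP3 row was at 0.22 (adjusted p = 0.0798). Its identifier in the name table is listed as GBP2 in the authors' deposited table, so its identity within the family is uncertain. GBP1, GBP2, GBP4 and GBP5 had no row of their own name and were not analysed here.

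CD274 encodes PD-L1, the ligand that restrains T cells through PD-1 and a textbook target of IRF1. Levels were 81.7, 89.2 and 105.8 CPM in Early CTL and 58.2, 76.2 and 74.1 CPM in Early ACT. Each stimulated library lay below each unstimulated one, but the log2 fold change of -0.40 ± 0.15 did not pass (95% interval -0.71 to -0.10, adjusted p = 0.107), and it did not pass in any of the 19 alternatives. Late CTL libraries held 52, 39.2 and 58.9 CPM and Late ACT libraries 43.1, 40.7 and 46.4 CPM, with overlap. The late response was -0.20 ± 0.16 (95% interval -0.52 to 0.12, adjusted p = 0.9985), which leaves room for a rise of at most 1.09-fold within the interval.

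PARP14 encodes an ADP-ribosyltransferase of the interferon response studied in macrophage activation. In Early CTL it was even, at 272.4, 265.3 and 270.4 CPM. In Early ACT it was 275.4, 378.2 and 379.9 CPM, so libraries 2 and 3 were clearly higher and library 1 barely so. The early log2 fold change of 0.36 ± 0.14 did not pass (95% interval 0.08 to 0.64, adjusted p = 0.118). Without Early ACT 1 it was 0.50 and passed (adjusted p = 0.000242). Late CTL libraries held 200.8, 199.1 and 140.4 CPM and Late ACT libraries 167.7, 174.3 and 158.6 CPM. The late response was -0.11 ± 0.14 (95% interval -0.39 to 0.18, adjusted p = 0.9985).

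CIITA encodes the master coactivator of MHC class II genes, which interferon-gamma induces in many cell types, and CD74 encodes the invariant chain that guides class II molecules and is one of its targets. CIITA was at 105.8, 86.4 and 72.7 CPM in Early CTL and 149.3, 102.2 and 101.4 CPM in Early ACT. The ranges overlapped, and the log2 fold change was 0.41 ± 0.24 (95% interval -0.10 to 0.91, adjusted p = 0.346). Without Early ACT 1 it was 0.22 (adjusted p = 0.788). Late CTL libraries were uneven, at 130.6, 131.6 and 54.8 CPM, against 84, 115.9 and 117.8 CPM in Late ACT (0.01 ± 0.24, 95% interval -0.50 to 0.51, adjusted p = 0.9985).

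CD74 was at 4315, 4360 and 4630 CPM in Early CTL, and at 6395, 4321 and 4316 CPM in Early ACT. The higher early mean came from Early ACT 1, since libraries 2 and 3 lay at the bottom of the unstimulated range. The log2 fold change was 0.18 ± 0.13 (95% interval -0.09 to 0.45, adjusted p = 0.469) with that library and -0.04 (adjusted p = 0.838) without it. Late CTL libraries held 3258, 3387 and 4190 CPM and Late ACT libraries 3281, 3331 and 3482 CPM (-0.10 ± 0.13, 95% interval -0.37 to 0.17, adjusted p = 0.9985).

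**Figure D2:**
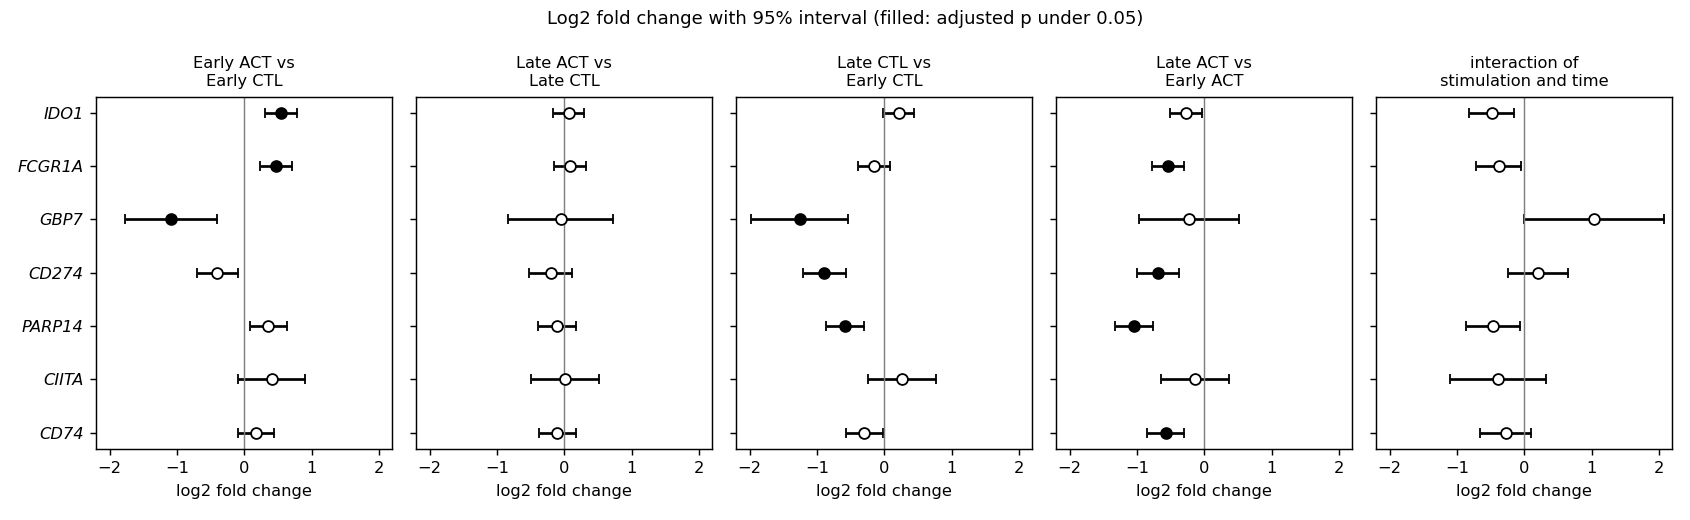
Log2 fold change (horizontal axis) of each target gene with its 95% interval in the 5 comparisons, from the fit over all 12 libraries; filled points passed an adjusted p of 0.05. Only IDO1, FCGR1A and GBP7 are filled for early stimulation, none is filled for late stimulation or the interaction, and the filled points for late against early all lie below 0.

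Class II genes and their regulators stood with CIITA and CD74. None of the 11 tested genes of the list passed on early stimulation, with a median log2 fold change of -0.06 beside 0.00 over all tested genes, and none on late stimulation. The list held 33 names, some of them alternative names of the same gene. Of the DR, DP and DQ chains only HLA-DRA is in this count, beside genes of peptide loading and regulators, so the median says little about those chains. HLA-DRB1, HLA-DPB1 and HLA-DQA1 had no row of their own name. HLA-DRA, the alpha chain of the main class II molecule, was at 3993 ± 315 and 4477 ± 915 CPM in Early CTL and Early ACT (0.16 ± 0.13, adjusted p = 0.482). Only Early ACT 1 was above the unstimulated range, and without it the difference was -0.01 (adjusted p = 0.95). NFYC and NFYA, subunits of a factor that binds class II promoters, were at 0.35 and -0.12 (adjusted p = 0.163 and 0.718), and MAMU-DOB, which modulates peptide loading, was at -0.32 (adjusted p = 0.581). Names that rest only on the authors' deposited tables are left out of list counts, because those tables list only genes that differed between the times. Among them were MARCH1, a ubiquitin ligase that removes class II molecules from the surface, which fell from 52.8 ± 3.32 to 36.3 ± 5 CPM (-0.53 ± 0.14, adjusted p = 0.0215), HLA-DPA1 (0.10, adjusted p = 0.707) and HLA-DMA (0.00, adjusted p = 0.993). With Early ACT 1 left out HLA-DPA1 was at -0.07 and HLA-DMA at -0.21, neither of which passed (adjusted p = 0.659 and 0.11). In late stimulation the genes with the smallest p in this list were HLA-DMA at -0.24, MAMU-DOB at 0.60, HLA-DPA1 at -0.19 and NFYA at 0.22, each with an adjusted p of 0.9985.

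Read against all genes, the count of 3 called members on early stimulation stands beside a background of 7.23% of tested genes called, with 4.57% higher and 2.66% lower. By library, 3 members were higher in every Early ACT library than in any Early CTL library, and 2 were lower in every one, where 12.6% and 13% of tested genes did so (25.7% in either direction). The median log2 fold change of the 7 was 0.36, against 0.00 for all tested genes. At 19 months the edgeR test called 0 genes of 11826 (0%), with 527 at an unadjusted p under 0.05, and DESeq2 called 15. The median of the 7 was then -0.05, and no member's groups were apart, where 11% of tested genes had groups that did not overlap (5.44% all higher and 5.57% all lower).

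A wider list of interferon-gamma targets gave a mixed picture at 4.5 months. Of its 40 tested genes 9 rose, 2 fell and 29 did not pass, with a median log2 fold change of 0.22. Of all tested genes 4.57% were called higher and 2.66% lower. Without Early ACT 1 the counts of the list were 14 higher and 2 lower. Leaving out that library also moved the calls over all genes, from 855 to 1554. CFB, a complement protease also induced by LPS, rose from 29.4 ± 3.38 to 66.4 ± 11.8 CPM (1.17 ± 0.19, adjusted p = 0.000105). IL15RA, the receptor chain that presents interleukin 15, rose by 0.65 ± 0.13 (adjusted p = 0.00135) and GCH1, which makes the cofactor of nitric oxide synthase, by 0.77 ± 0.15 (adjusted p = 0.00153). AIM2, a sensor of cytosolic DNA, rose by 0.67 (adjusted p = 0.00393), IDO2, the paralog of IDO1, by 0.66 (adjusted p = 0.00203), PML, a nuclear body protein, by 0.56 (adjusted p = 0.00553) and TRIM21, an intracellular antibody receptor, by 0.45 (adjusted p = 0.0456). The call of TRIM21 was lost without Early ACT 1 (0.28, adjusted p = 0.101), while AIM2 was then at 0.88 (adjusted p = 8.09e-12). The 2 that fell were GBP6 and the death ligand gene TNFSF10 (4.65 ± 0.44 to 1.59 ± 0.61 CPM, adjusted p = 0.0485). TNFSF10 was named after its values were seen, and its call rests on 9 to 55 counts in each early library. ACOD1, which makes itaconate and is named only by the authors' deposited table, rose from 4452 ± 256 to 8900 ± 165 CPM (1.00 ± 0.10, adjusted p = 1.37e-07).

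At 19 months none of the 40 tested genes of this list passed, and the median was -0.02. AIM2 went from 196.4 ± 14.6 CPM in Late CTL to 284.4 ± 14.8 CPM in Late ACT and IDO2 from 46.9 ± 7.67 to 63.5 ± 4.66 CPM, with every stimulated library higher (0.54 and 0.45, adjusted p = 0.815 and 0.946). ACOD1 was also higher in every stimulated library (0.21, adjusted p = 0.9985). PML and TRIM21 were lower in every one (-0.41 and -0.35, adjusted p = 0.9985 for both).

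The chemokine genes that interferon-gamma classically induces, singled out here after their values were seen, were low or lower. CXCL9 had 0, 0 and 0 counts in Early CTL and 2, 2 and 0 in Early ACT, followed by 0, 2 and 2 in Late CTL and 3, 5 and 7 in Late ACT. It was too low to be tested. A count of 0 allows up to 0.438, 0.279 and 0.256 CPM in the 3 Early CTL libraries, counting error only. CXCL10 was at 31.7, 25.5 and 25.1 CPM in Early CTL and 14.4, 19.4 and 21.3 CPM in Early ACT, where every stimulated library was lower (-0.55 ± 0.22, adjusted p = 0.136). The row that the authors' deposited table names WARS, the tryptophanyl-tRNA synthetase, rose from 315.9 ± 1.79 to 416.9 ± 11.6 CPM (0.40 ± 0.10, adjusted p = 0.0136). The name table gives that identifier another name, so its identity is uncertain, and this row too was named after its values were seen. IFNG, IFNGR1 and CXCL11 had no row under a usable name and were not analysed here.

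Genes of the signal chain upstream of the targets were read as RNA after 8 h only. The activity of their proteins and earlier times were not measured. Of 11 tested genes 1 fell and none rose early, with a median of -0.02. Of all tested genes 2.66% were called lower and 4.57% higher. IRF1 was at 689.5, 671.9 and 654.3 CPM in Early CTL and at 863.5, 646.1 and 654.9 CPM in Early ACT (0.10 ± 0.12, adjusted p = 0.68), so that only Early ACT 1 was above the unstimulated range. Without that library IRF1 was at -0.04 (adjusted p = 0.796). SOCS1, the feedback inhibitor of JAK kinases, was at 29.1 ± 0.89 and 28.8 ± 2.36 CPM (-0.02 ± 0.15, adjusted p = 0.971).

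IFNGR2, a receptor chain, was at 0.24 ± 0.11 (adjusted p = 0.216), JAK2 at -0.46 ± 0.16 (adjusted p = 0.0774) and STAT2, which serves type I interferon, at 0.33 ± 0.15 (adjusted p = 0.197). The phosphatase gene PTPN6 was the one that fell (-0.82 ± 0.17, adjusted p = 0.00266). SOCS3, another feedback inhibitor that LPS also induces and that is named only by the authors' deposited table, rose from 187 ± 9.9 to 297.1 ± 30.6 CPM (0.67 ± 0.12, adjusted p = 0.000457). Without Early ACT 1 the list had 1 higher and 1 lower. IFNGR2 was then at 0.12, JAK2 at -0.24 and STAT2 at 0.22 (adjusted p = 0.351, 0.0875 and 0.316), and PTPN6 at -1.12 (adjusted p = 7.86e-11).

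Targets of LPS and NF-kB were read in the same libraries. By the protocol no group was given LPS or interferon-gamma alone, so the effects of these agents cannot be told apart here. Of 17 tested genes 16 rose at 4.5 months and none fell, with a median of 1.16. The counts were 16 and 0 without Early ACT 1. Of all tested genes 4.57% were called higher and 2.66% lower in the fit with every library. IL6 rose from 31.3 ± 2.5 to 205.3 ± 8.49 CPM (2.72 ± 0.13, adjusted p = 1.07e-13), and TNF from 391.2 ± 11.8 to 1468 ± 329 CPM (1.91 ± 0.13, adjusted p = 7.9e-11). CSF3 rose by 2.39, CCL20 by 1.69 and PTGS2, the inducible cyclooxygenase, by 1.80. CXCL2, named by the authors' deposited table alone, rose by 2.00. At 19 months none of the 17 passed (median 0.07); IL6 was at 0.57 (adjusted p = 0.111), PTGS2 at 0.38, CSF3 at 0.26 and TNF at 0.24 (adjusted p = 0.9985 for each of the last 3). Neither median was tested against that of the interferon-gamma targets. At 19 months 5 of the 17 were higher in every Late ACT library than in any Late CTL library, and 0 were lower. IL6, PTGS2, CSF3 and TNF were among the 5. Of all tested genes 5.44% were higher and 5.57% lower in every Late ACT library. Unstimulated levels of this list were mostly higher late, where 12 of the 17 rose and 1 fell from Early CTL to Late CTL (median 0.82). Of all tested genes 20.9% were called higher and 19.8% lower there. TNF was at 1175 ± 128 CPM in Late CTL and 1387 ± 57.8 CPM in Late ACT, and IL6 at 80.9 ± 3.21 and 120.4 ± 11.9 CPM.

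**Figure D3:**
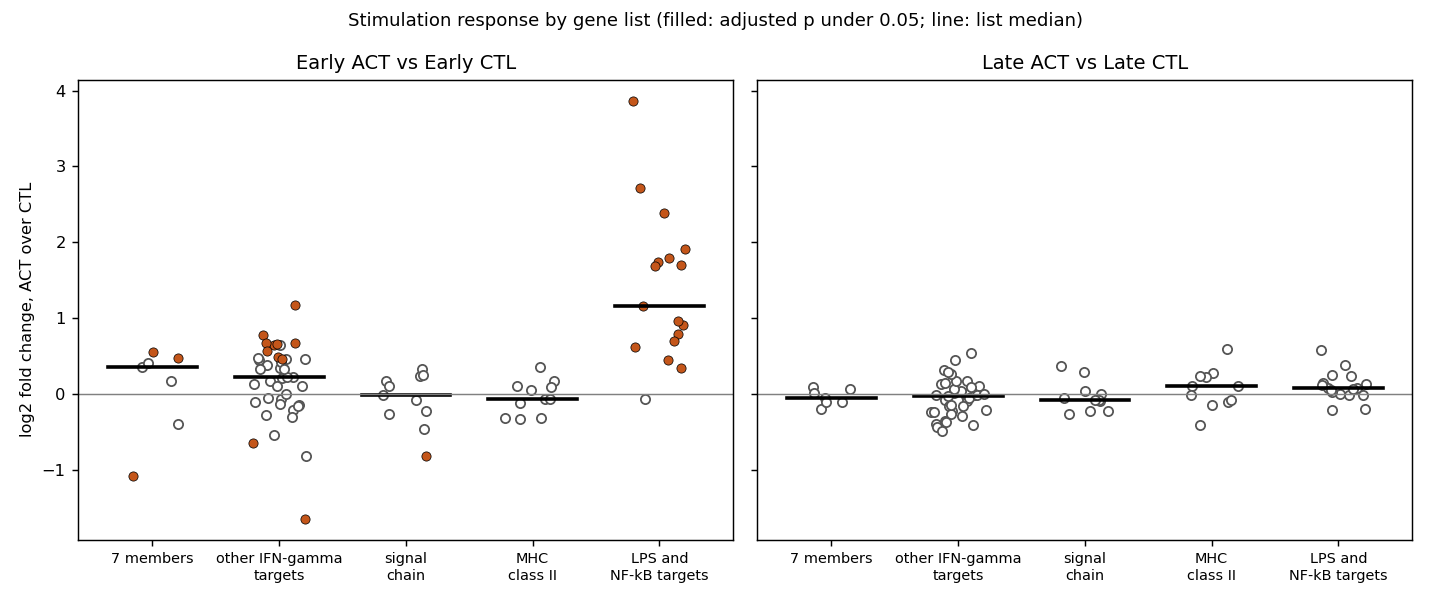
Log2 fold change of stimulated over unstimulated cells (vertical axis) for each tested gene of 5 lists, at 4.5 months on the left and 19 months on the right; filled points passed an adjusted p of 0.05 and lines are list medians. On the left, 16 of 17 LPS and NF-kB targets are filled, as are 9 higher and 2 lower of the 40 other interferon-gamma targets; on the right no point is filled.

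The difference between the early and the late response was tested as an interaction of stimulation and time, which called 167 genes (1.41%) and none of the 7. IDO1 had the smallest adjusted p of the 7, at -0.49 ± 0.16 (95% interval -0.82 to -0.15, adjusted p = 0.179). FCGR1A was at -0.38 ± 0.16, PARP14 at -0.47 ± 0.19 and GBP7 at 1.03 ± 0.50 (adjusted p = 0.363, 0.341 and 0.463). CD274, CIITA and CD74 were at 0.20, -0.40 and -0.28 (adjusted p = 0.797, 0.732 and 0.631). Without Early ACT 1 IDO1 (-0.34, adjusted p = 0.0245) and PARP14 (-0.60, adjusted p = 0.0032) passed. IDO1 also passed with DESeq2 over all libraries (-0.50, adjusted p = 0.0481), and over its 18 alternatives its adjusted p ran from 0.0245 to 0.425.

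The targets also differed between the times. In unstimulated cells GBP7, CD274 and PARP14 were lower at 19 months, and none of the 7 was higher, against a background of 40.7% of genes called (20.9% higher and 19.8% lower). CD274 went from 92.2 ± 12.3 to 50 ± 9.97 CPM (SD, n = 3; -0.89 ± 0.15, adjusted p = 5.57e-05), PARP14 from 269.3 ± 3.64 to 180.1 ± 34.4 CPM (-0.58 ± 0.14, adjusted p = 0.00149) and GBP7 from 8.56 ± 0.26 to 3.32 ± 2.22 CPM (-1.26 ± 0.35, adjusted p = 0.00559). All late libraries were below all early ones for these 3 and for CD74. CD74 did not pass (-0.30 ± 0.13, adjusted p = 0.0745), nor did IDO1 (0.21 ± 0.11, adjusted p = 0.147), whose late libraries were all higher. By overlap 4 members were lower and 1 higher in every late library, where 26.1% and 26.7% of tested genes were (52.8% in either direction). FCGR1A and CIITA were at -0.15 and 0.26 (adjusted p = 0.304 and 0.421). CIITA passed without Late CTL 3, its lowest library (0.57, adjusted p = 0.0141), and CD74 passed without it too (-0.43, adjusted p = 0.015).

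In stimulated cells all 7 had a lower fitted level late, and 4 passed, against 38.8% of genes called (19.1% higher and 19.7% lower). PARP14 went from 344.5 ± 59.9 to 166.9 ± 7.89 CPM (-1.05 ± 0.14, adjusted p = 2.02e-06), CD274 from 69.5 ± 9.83 to 43.4 ± 2.87 CPM (-0.69 ± 0.15, adjusted p = 0.000957), FCGR1A from 196.7 ± 20.8 to 135.2 ± 4.02 CPM (-0.54 ± 0.12, adjusted p = 0.000717) and CD74 from 5011 ± 1199 to 3365 ± 105 CPM (-0.57 ± 0.13, adjusted p = 0.00135). The CD74 difference was -0.38 without Early ACT 1 (adjusted p = 7.74e-05). Early and late libraries did not overlap for these 4 or for IDO1 (-0.27 ± 0.11, adjusted p = 0.061). GBP7 and CIITA were at -0.22 and -0.14 (adjusted p = 0.655 and 0.683). Of all tested genes 24.5% were lower and 26% higher in every late library (50.4% in either direction).

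The authors' deposited tables list 5 of the 7 for unstimulated and 4 for stimulated cells. For unstimulated cells the authors' deposited table gives CD274 at -0.88, PARP14 at -0.57, GBP7 at -1.29, CD74 at -0.28 (adjusted p = 0.00869) and IDO1 at 0.23 (adjusted p = 0.0163), so the last 2 are called there and not here. For stimulated cells the authors' deposited table gives PARP14 at -1.05, CD274 at -0.68, CD74 at -0.57 and FCGR1A at -0.53. On build Mmul_8.0.1 that deposited table by the authors places IDO1 (ENSMMUG00000019304) on chromosome 8 from 40457840 to 40473496, FCGR1A (ENSMMUG00000004362) on chromosome 1 from 124142449 to 124150981 and GBP7 (ENSMMUG00000000663) on chromosome 1 from 89571546 to 89585755. CD274 (ENSMMUG00000012235) lies on chromosome 15 from 78977579 to 78989472, PARP14 (ENSMMUG00000022569) on chromosome 2 from 43903346 to 43952182 and CD74 (ENSMMUG00000009113) on chromosome 6 from 148532898 to 148543667 in the same tables of the authors. CIITA (ENSMMUG00000007777) is in neither table.

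Other genes of the pathway were also lower late. On the log2 scale IRF1 fell by 0.59 in unstimulated and by 0.77 in stimulated cells (adjusted p = 0.000322 and 1.86e-05) and SOCS1 by 1.01 and 0.70 (adjusted p = 1.86e-05 and 0.000855). Of the 11 tested genes of the signal chain 7 fell in unstimulated cells with none higher, and 6 fell and 1 rose in stimulated cells, the riser being JAK2 (0.49, adjusted p = 0.0154). JAK2 was lowest in Early ACT 1, at 84.7 CPM against 153 and 145.4 CPM, and without that library its difference was 0.26 (adjusted p = 0.0303). Of the 40 other targets 18 fell and 6 rose in unstimulated cells (median -0.37), and 20 fell and 3 rose in stimulated cells (median -0.48). Beside these counts, 19.8% of all tested genes were called lower and 20.9% higher in unstimulated cells, and 19.7% and 19.1% in stimulated cells. CXCL10 fell from 27.4 ± 3.71 to 4.64 ± 1.99 CPM in unstimulated cells (adjusted p = 2.35e-08).

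Of 8 markers of monocytes and macrophages 6 fell and 2 rose between the times in unstimulated cells, where 19.8% of all tested genes were called lower and 20.9% higher. The risers were MSR1 and MRC1, scavenger and mannose receptor genes (0.47 and 1.22, adjusted p = 0.0271 and 0.0312), named after their values were seen. CD14 fell from 2169 ± 80.6 to 1506 ± 191 CPM and CD163 from 1197 ± 47.3 to 585.8 ± 14.8 CPM in unstimulated cells, and the sum of the 8 markers ran from 9395 to 9846 CPM in Early CTL and from 5731 to 6313 CPM in Late CTL. In stimulated cells the sums were 8689 to 9187 CPM early and 5314 to 5568 CPM late. Sums of CD16 monocyte markers (4 found of 7) were 434 to 438.2 CPM in Early CTL and 275.7 to 284.4 CPM in Late CTL, and those of neutrophil markers (8 of 9) 660.5 to 688.5 and 364.6 to 420.4 CPM. For dendritic cell markers (9 of 10) the sums were 80 to 95.4 CPM and 75.2 to 77.4 CPM, with CLEC9A at 0 in both early groups, and for platelet and erythroid markers (5 of 7) 23.5 to 27.9 CPM and 13.1 to 21.1 CPM. Members of a sum did not all move alike in unstimulated cells. FCGR3, the gene of CD16, went from 38.95 to 43.34 CPM, while LILRB1 of the same list went from 285.1 to 152.5 CPM. Of 7 tested neutrophil markers 2 rose and 3 fell, and CSF3R, the largest part of that sum, went from 534.3 to 308.9 CPM. LILRB1 and CSF3R were named after their values were seen. The part of these markers in the fall of the targets was not tested. In bulk RNA, fewer cells that express a gene and less RNA of it per cell cannot be told apart. No label gives a date, so time after transplant and a batch shared by all libraries of a time cannot be told apart.

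**Figure D4:**
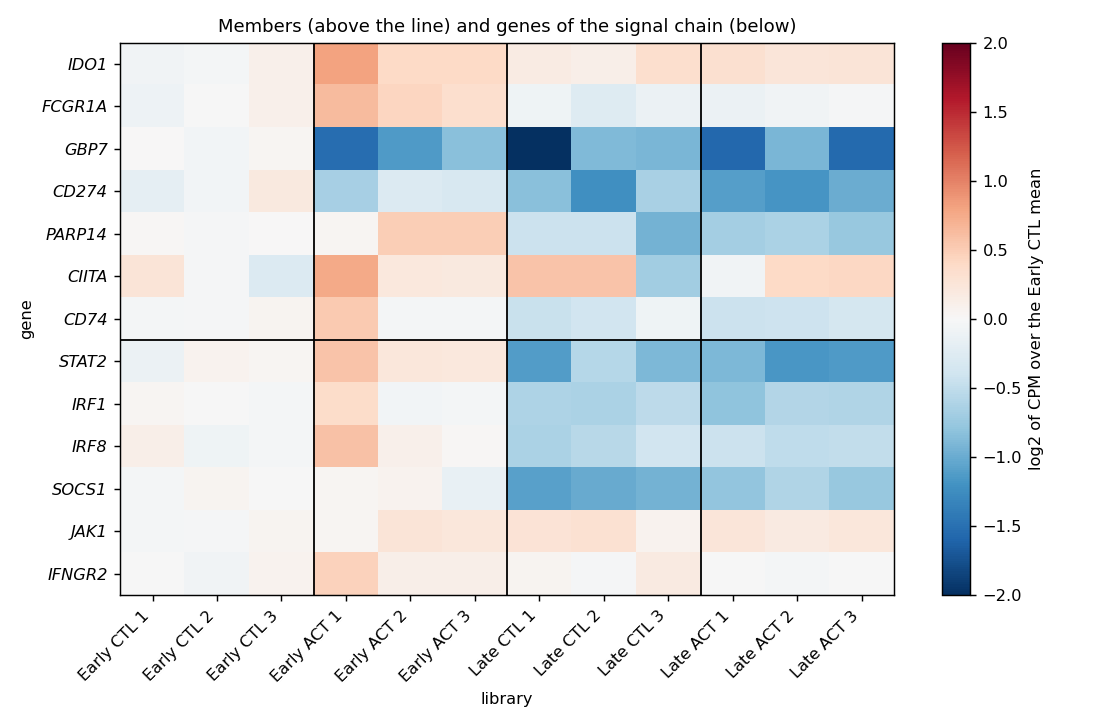
Log2 of each library's CPM over the Early CTL mean (colour, limited to -2 to 2) for the 7 targets and for 6 genes of the signal chain, with libraries in columns. The late columns are blue for IRF1, SOCS1, CD274 and GBP7 with or without stimulation, and Early ACT 1 differs from the other Early ACT columns for CD74, IRF1 and PARP14.

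The 7 targets did not follow one pattern over the 12 libraries. Ordered by mean, CD274 ran from Early CTL through Early ACT and Late CTL to Late ACT, and GBP7 had only its Early CTL libraries apart from the rest. PARP14 and CD74 ran from Early ACT through Early CTL and Late CTL to Late ACT, with overlap between the first pair of groups for CD74 and between the late groups for both. IDO1 and FCGR1A were highest in Early ACT, and the late groups overlapped for each. As a description of likeness over the 12 libraries (Pearson's r of log2 CPM, in which the 4 groups cluster), the named genes closest to PARP14 were EPSTI1, PARP9 and EIF2AK2 (0.977, 0.965 and 0.963). Those closest to CD274 were CREG1, MARCH1 and OXA1L (0.957, 0.957 and 0.956), to IDO1 SHMT2, P2RX4 and PGLYRP2 (0.975, 0.964 and 0.964) and to FCGR1A G0S2, DAGLB and DENND5A (0.976, 0.962 and 0.962). Those closest to CD74 were TUBB2B, ATP6V0B and OTUB1 (0.987, 0.985 and 0.984), to CIITA PTBP1, ITGAX and JARID2 (0.952, 0.921 and 0.917) and to GBP7 NUDT21, ECI1 and DCN (0.949, 0.941 and 0.933).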

How the data were processed

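RNA-seq counts of 12 libraries were analysed. Per the labels' protocols, cDNA came from SMART-Seq v4 and libraries from Nextera XT, kits that do not mark strand. The submitters' processing notes name bcl2fastq and build Mmul_8.0.1; the aligner and the counting tool were not given in the sources used here. The deposited gene table holds raw counts. The authors' deposited late-against-early tables hold a log2 fold change with its SE, a score (their ratio), a mean normalized signal and p-values; every listed gene has an adjusted p below 0.05, and the tool is not stated.

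Rows were named by their symbol, then the authors' tables, then an Ensembl name table (15682 of 32386 rows); 137 rows were named differently by the sources, and a name on several rows was not used. Genes were tested with edgeR 4.0.16 in R 4.3.3 (quasi-likelihood F test, robust, TMM factors from 0.879 to 1.10, filterByExpr by group, a coefficient per group over all libraries), which left 11826 genes. Benjamini-Hochberg adjustment ran over these genes, with a threshold of 0.05. The SE was obtained by dividing the size of the log2 fold change by the root of its F statistic, and 95% intervals use the test's degrees of freedom. Alternatives were RLE and upper-quartile factors, no or a stricter filter (1 CPM in 3 libraries), DESeq2 1.42.0, a replicate block, the compared groups alone and each library left out. The code was tested on simulated data. Reads carry no molecular identifiers, so limits from a count of 0 (3 counts) cover counting error only.

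Members, lists and tests were chosen with earlier results of these data known. The text names every member, IFNGR2, IRF1 and SOCS1, up to 4 genes per list with the smallest p in each stimulation comparison, the 3 genes most like each member (log2 CPM, prior count 2), and CD14, CD163 and TNF; others are marked as chosen after their values were seen. A gene that this rule would name is not reported here.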

Additional observations from a re-analysis of the deposited data

Results flagged for a closer look

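For 9 genes named beside the targets, the response to stimulation differed between the times by the interaction test (late minus early log2 fold change, edgeR quasi-likelihood test, Benjamini-Hochberg adjustment). The difference was -2.14 for IL6 (adjusted p = 9.17e-09), -2.13 for CSF3 (9.17e-09), -1.80 for CXCL2 (5.67e-07), -1.67 for TNF (1.13e-06), -1.61 for CCL20 (1.34e-07) and -1.41 for PTGS2 (0.000132), all LPS and NF-kB targets. Among wider interferon-gamma targets it was -0.97 for PML (0.00376), -0.79 for ACOD1 (0.0023) and -0.81 for TRIM21 (0.0406). Of all tested genes 167 (1.41%) were called by this test. These genes were named for a small p on early or late stimulation. The interaction uses the same responses, so the count of 9 is not independent of that choice. The LPS and NF-kB targets named here were higher in every Late CTL library than in any Early CTL library. TNF averaged 391.2 CPM in Early CTL and 1175 CPM in Late CTL. The part of this unstimulated rise in the differences was not tested. PML was higher in every Early ACT library than in any Early CTL library and lower in every Late ACT library than in any Late CTL library, and so was TRIM21; the late values did not pass (-0.41 and -0.35, adjusted p = 0.9985 for both). None of the 7 targets passed this test over all libraries, while IDO1 did with DESeq2 (adjusted p = 0.0481), and IDO1 and PARP14 did without Early ACT 1 (0.0245 and 0.0032).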

How the results depend on the processing

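Of 657 alternative values of the 7 targets, 615 kept direction and side of the threshold, 11 lost a call, 19 gained one and 12 changed sign; the cause was not tested. The sign changes were in values that had not passed: CD74 on early stimulation (-0.0358 without Early ACT 1, range -0.0358 to 0.273 leaving out 1 library), CIITA between stimulated groups (0.0387 without Early ACT 1, range -0.252 to 0.0387), and on late stimulation GBP7 (0.0133 with the replicate block, -0.417 to 0.218 leaving out 1 library), CIITA (-0.00583 with DESeq2, -0.309 to 0.208 leaving out 1 library) and CD74 (-0.17 to 0.0164, the latter without Late CTL 3). Among the genes named beside the targets, leaving out Early ACT 1, chosen after seeing the data, turned the sign of 5 early values that had not passed: HLA-DRA -0.0136, HLA-DMA -0.212, HLA-DPA1 -0.0692, FCGR2A -0.0102 and IRF1 -0.0436. With only the compared groups fitted, early stimulation called 503 genes in place of 855 and late stimulation 10 in place of 0, and 5 members in place of 3 were lower or higher late in unstimulated cells. Late stimulation called 2 genes with upper-quartile factors, 5 with no filter and 15 with DESeq2; the interaction called 312 genes and 1 member (IDO1) with DESeq2. Leaving out 1 library gave 464 to 1554 genes and 1 to 4 members for early stimulation, 0 to 29 genes and 0 members for late stimulation, 4254 to 6148 genes and 3 to 5 members for late against early unstimulated cells, 3689 to 4908 genes and 4 to 5 members for stimulated cells, and 95 to 546 genes and 0 to 2 members for the interaction. The highest counts for early stimulation, late stimulation and the interaction (1554, 29 and 546) were without Early ACT 1, and the lowest for early stimulation without Early CTL 2 (485 and 483 without Early CTL 1 and 3). The share of calls higher late was 51.3% in unstimulated cells, against 63.3% with upper-quartile factors, which moved the median of all genes from 0.02 to 0.15, and 64.5% with DESeq2; in stimulated cells it was 49.3% against 61% with upper-quartile factors. With the replicate block, early stimulation called 727 genes and 3 members and the interaction 114 genes and 0 members. Replicate numbers did not pair the libraries: deviations from the group means correlated by -0.09 to 0.10 for the same number and -0.09 to 0.10 for different numbers. GBP7, at 3 to 103 counts a library, is limited most by depth.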
